A study of Mus musculus with 8 samples.

Results

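The genes described here encode the constitutive 26S proteasome, read in a mouse macrophage line, RAW264.7, which came from Balb/c animals. Members were all genes whose name in the deposited table began with Psma, Psmb, Psmc or Psmd and a number, leaving out the immunoproteasome genes Psmb8, Psmb9 and Psmb10. This gave 34 of 17889 gene names, read by 50 of 25697 probes, and each gene was represented by its probe with the highest mean intensity. They comprised 14 core particle genes (Psma1 to Psma7 and Psmb1 to Psmb7), 16 regulatory particle genes (Psmc1 to Psmc6 and 10 Psmd genes), 3 genes for assembly chaperones of the regulatory particle (Psmd5, Psmd9 and Psmd10) and Psmc3ip. Psmc3ip matched by name only, since its product acts in meiotic recombination and is no proteasome subunit, and it was kept out of both particles. Psma8, Psmb11 and Psmd3 were not analysed here.

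The cells had been transfected 24 h before RNA extraction with Ypel5-specific siRNA (4 arrays) or with scrambled control siRNA (4 arrays), both with HiPerfect reagent and in the same medium. All 8 Illumina bead arrays came from 1 chip by their titles. The descriptions number the replicates 1 to 4 in each group, as used here, whereas the source names call 3 of the 4 scrambled arrays rep1 and 3 of the 4 Ypel5 siRNA arrays rep2. Neither says that the replicates were separate cultures, so each p-value reflects the scatter among these arrays alone, and that scatter may be technical. Ypel5 itself was not well above background on any array in either group (probe ILMN_2951446, log2 intensity 4.70 ± 0.095 with scrambled and 4.79 ± 0.10 with Ypel5 siRNA, SD, n = 4 in each group, exact permutation p = 0.257, two-sided). Differences are therefore those between the arrays labelled Ypel5 siRNA and the arrays labelled scrambled.

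The proteasome degrades proteins that carry ubiquitin chains. Its core particle is a barrel of stacked rings, with α subunits forming the gate and β subunits forming the chamber in which Psmb5, Psmb6 and Psmb7 cut the substrate. The regulatory particle caps the barrel: its base holds a ring of ATPases (Psmc genes) that unfold the substrate, and its lid removes the ubiquitin chain. In macrophages, interferon-γ exchanges the catalytic β subunits for Psmb8, Psmb9 and Psmb10, which alters the peptides offered to T cells. The subunit genes are known to be transcribed together, with the transcription factor Nfe2l1 acting through antioxidant response elements when proteasome activity falls.

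The stretches in front of the Psmb5 and Psmb6 genes are shown because both genes encode catalytic subunits. Each stretch also holds a match to the core letters of an antioxidant response element, close to the transcription start. They are the 250 bases before the start in RefSeq's promoter table (GRCm38.p6), written 5′ to 3′ on the gene's strand, from chr14:54617996-54618245 (minus strand) for Psmb5 and chr11:70525107-70525356 (plus strand) for Psmb6. Capitals mark the match to TGACNNNGC, which starts at -47 for Psmb5 and at -9 for Psmb6, counted from the transcription start.
Psmb5: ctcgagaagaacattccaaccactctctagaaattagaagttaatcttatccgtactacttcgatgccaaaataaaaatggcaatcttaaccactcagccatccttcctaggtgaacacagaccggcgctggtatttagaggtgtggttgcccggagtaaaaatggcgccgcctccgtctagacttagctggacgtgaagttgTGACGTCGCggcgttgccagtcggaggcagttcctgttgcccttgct
Psmb6: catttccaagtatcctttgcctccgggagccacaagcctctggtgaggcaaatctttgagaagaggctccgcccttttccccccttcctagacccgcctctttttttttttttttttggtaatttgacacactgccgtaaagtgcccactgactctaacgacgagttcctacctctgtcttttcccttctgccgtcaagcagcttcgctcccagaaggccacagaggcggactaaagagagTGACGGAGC

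Matches to TGACNNNGC were searched on both strands in windows of 300 bases that reach 250 bases before and 50 after each start. Of 30 windows of 28 proteasome genes in the table, 5 held a match (16.7%), against 12.4% of all 32851 windows of that length. Besides Psmb5 and Psmb6 these were the windows of Psmc6, Psmd9 and Psmd12. Psmb1, Psmb2, Psmb7, Psmc3 and Psmd7 had no window and were not searched. The CCAAT box, the sequence bound by NF-Y, was found on either strand in 11 of the 30 windows (36.7%) and in 37.4% of all windows. No match of one motif overlapped a match of the other in the members' windows. A match is a description of the letters only.

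Proteasome genes differed little between the siRNA groups. Of the 34 members, 31 were tested, having a probe that 4 or more of the 8 arrays detected at p under 0.05, and 30 of these were detected on all 8. At a limma adjusted p of 0.05 over all 8145 genes tested, 0 of 31 passed, against 4.95% of all genes (2.96% higher and 1.99% lower with Ypel5 siRNA). At an unadjusted p under 0.05 there was 1 member, Psmd7, against 21.6% of all genes. Psmd7 was also the 1 member whose groups did not overlap, against 15.2% of all genes, 7.92% with the Ypel5 siRNA arrays above and 7.29% with them below. The median of the 31 log2 differences (Ypel5 siRNA minus scrambled) was 0.02, with 19 above 0 and 12 below, and the median over all genes tested was 0.00.

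The intervals show what size of change these arrays leave room for in the main fit. They do not cover the choice of scaling: with only a common median per array, 9 of 11 core genes lay below 0, against 3 in the main fit. The 95% interval of the difference lay within 1.25-fold in either direction for 26 of the 31 members and within 1.5-fold for 30. The same held for 55.3% and 86.3% of all genes tested. The median standard error was 0.058 for the members and 0.077 for all genes on the log2 scale. The members were not matched to other genes by probe intensity, and dim probes can be less precise. Psmc6, with a mean raw intensity of 224, had an SE of 0.18, against 0.041 for Psmb3 at 17055. Whether the members differ from equally bright genes was not tested. Psmb5, Psmc6, Psmd1, Psmd5 and Psmd6 had intervals reaching beyond 1.25-fold, and the interval of Psmd5 alone reached beyond 1.5-fold.

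**Figure D1:**
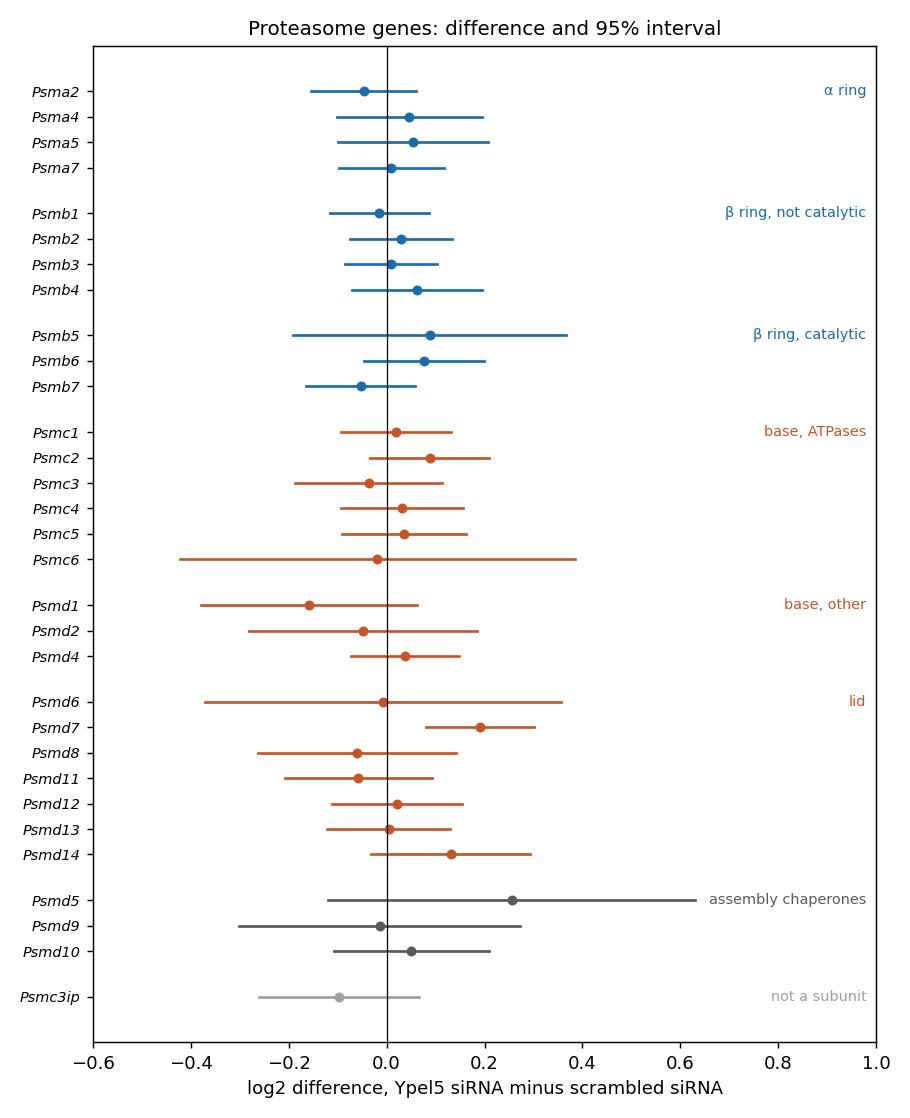
Log2 difference in intensity (x axis, Ypel5 siRNA minus scrambled siRNA) of the 31 tested members, with points for the estimate, lines for the 95% limma interval and genes ordered by role on the y axis. The interval of Psmd7 lies above 0 and the other 30 intervals include 0.

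In the core particle, 11 of 14 genes were tested. Of these, 0 passed the limma threshold (4.95% of all genes) and 0 had an unadjusted p under 0.05 (21.6% of all genes). Among so few genes, 0 past the threshold is near the share of all genes. The median difference of the 11 genes was log2 0.03, between -0.05 and 0.09, with 8 above 0 and 3 below. The sign of that median depended on the scaling: with only a common median per array it was log2 -0.07 with 2 above 0 and 9 below, while the median of all genes was then log2 0.04. In the regulatory particle all 16 genes were tested. Here 0 passed (4.95% of all genes), again near that share, and 1 (Psmd7) had an unadjusted p under 0.05 (21.6% of all genes). The median difference of the 16 genes was log2 0.01, between -0.16 and 0.19, with 9 above 0 and 7 below. That median was log2 -0.01 with 7 above 0 in 2 alternatives, without Ypel5 siRNA replicate 3 and with the source-name replicate number as a block. The median size of the difference, without sign, was log2 0.05 in the core and 0.04 in the regulatory particle, against 0.10 for all genes. Probe intensity was not matched between the members and all genes for these sizes. The particles are set side by side as a description, without a test between them.

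Array by array, the members lay close to their own means. The median deviation of the core genes from each gene's mean over the 8 arrays ran from -0.02 to 0.02 on the scrambled arrays and from -0.04 to 0.03 on the Ypel5 siRNA arrays (log2). For the regulatory particle it ran from -0.05 to 0.01 and from 0.00 to 0.03. The groups overlapped in both particles.

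**Figure D2:**
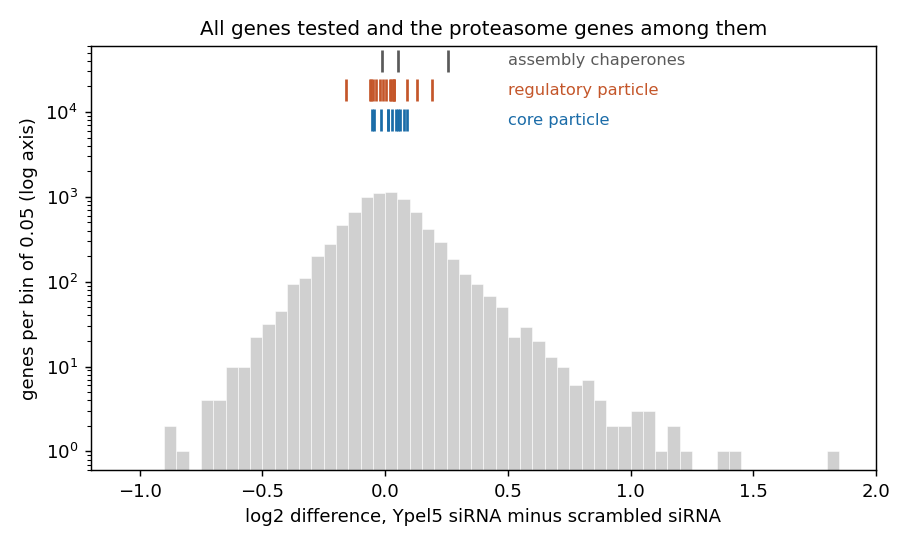
Number of genes per bin of log2 difference (grey bars, log y axis) for the 8145 genes tested, with ticks above for the tested genes of the core particle, the regulatory particle and the assembly chaperones. The ticks lie between -0.16 and 0.26, in the central part of the distribution.

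The α ring was represented by Psma2, Psma4, Psma5 and Psma7. Their differences ran from log2 -0.05 to 0.05 with adjusted p of at least 0.631. Psma2, read at log2 14.52, 14.62, 14.52 and 14.59 on the scrambled arrays 1 to 4, stood at 14.54, 14.46, 14.52 and 14.56 on the Ypel5 siRNA arrays. These ranges overlap, and the difference of log2 -0.05 (SE 0.047) had an adjusted p of 0.631 (exact permutation p = 0.229). The probes of Psma1, Psma3 and Psma6 were not well above background on any of the 8 arrays, with mean raw intensities between 171 and 180, so no fold is given for these α subunits.

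Of the β subunits without a catalytic site, Psmb1, Psmb2, Psmb3 and Psmb4 had differences from log2 -0.02 to 0.06 (adjusted p of at least 0.602). Psmb4, the β subunit that enters last during assembly, was at log2 14.82, 14.86, 14.77 and 14.71 on the scrambled arrays and at 14.95, 14.78, 14.88 and 14.78 on the Ypel5 siRNA arrays. The highest array belonged to the Ypel5 siRNA group and the lowest to the scrambled group, but the groups overlapped (log2 0.06, SE 0.058, adjusted p = 0.602, exact permutation p = 0.286).

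Among the catalytic subunits, Psmb5, which carries the chymotrypsin-like activity that bortezomib blocks, was the least precisely read. Its log2 intensity was 10.43, 10.30, 10.71 and 10.67 on the scrambled arrays and 10.49, 10.74, 10.82 and 10.43 on the Ypel5 siRNA arrays. Both groups held high and low arrays, and the difference of log2 0.09 (SE 0.12, 95% interval -0.19 to 0.37) had an adjusted p of 0.731 (exact permutation p = 0.514). It was log2 0.01 without scrambled replicate 2, 0.02 without Ypel5 siRNA replicate 3 and 0.15 without Ypel5 siRNA replicate 4. Psmb6, the caspase-like subunit, was at log2 13.49, 13.47, 13.36 and 13.38 against 13.59, 13.46, 13.48 and 13.48. Replicate 1 of the Ypel5 siRNA group stood highest, the groups overlapped, and the difference was log2 0.08 (SE 0.054, adjusted p = 0.472, exact permutation p = 0.229). Psmb7, the trypsin-like subunit, was at log2 13.85, 13.85, 13.84 and 13.73 on the scrambled arrays and at 13.80, 13.72, 13.79 and 13.75 on the Ypel5 siRNA arrays. Only the lowest scrambled array fell within the range of the other group, and the difference was log2 -0.05 (SE 0.049, adjusted p = 0.589, exact permutation p = 0.200).

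The ATPase ring of the base gave differences between log2 -0.04 and 0.09 for Psmc1 to Psmc6, with adjusted p of at least 0.396. Psmc2 stood at log2 0.09 (SE 0.053, 95% interval -0.03 to 0.21). The other ATPases were at log2 0.02 for Psmc1, -0.04 for Psmc3, 0.03 for Psmc4, 0.04 for Psmc5 and -0.02 for Psmc6. The probe of Psmc6 was detected on 6 of the 8 arrays and had a 95% interval of -0.42 to 0.38, so even a change of 1.25-fold in either direction would lie inside it.

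Of the other base subunits, Psmd1, a scaffold of the base, had the lowest difference of any subunit. It read log2 9.75, 9.89, 9.91 and 9.95 on the scrambled arrays and 9.80, 9.82, 9.82 and 9.43 on the Ypel5 siRNA arrays. The last of these arrays lay far below the other 7, and the difference of log2 -0.16 (SE 0.096) had an adjusted p of 0.397 (exact permutation p = 0.114). Without that array the difference was log2 -0.06. The other scaffold, Psmd2, was at log2 -0.05 (SE 0.10), and the ubiquitin receptor gene Psmd4 at log2 0.04 (SE 0.048).

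The lid held the member with the smallest p. Psmd7 encodes the partner with which the deubiquitinase Psmd14 forms a pair in the lid. Its log2 intensity was 12.62, 12.69, 12.60 and 12.69 on the scrambled arrays and 12.79, 12.87, 12.81 and 12.90 on the Ypel5 siRNA arrays. Every Ypel5 siRNA array lay above every scrambled array. The group means were 12.65 ± 0.045 and 12.84 ± 0.052 (SD, n = 4 each), a ratio of 1.14 (log2 0.19, SE 0.048, 95% interval 0.08 to 0.30). The exact permutation p was 0.0286, the smallest that 4 against 4 arrays can give, and the limma adjusted p over all genes was 0.061, short of the threshold. Before normalization its raw intensity was 5628 to 6597 on the scrambled and 6800 to 8640 on the Ypel5 siRNA arrays, whose median raw intensity over all probes was also higher (209.5 ± 14.6 against 189 ± 6.26, SD, n = 4 each, exact permutation p = 0.0857).

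The second Psmd7 probe gave nearly the same difference. ILMN_1220284 read log2 11.93, 12.03, 11.94 and 11.86 on the scrambled arrays and 12.22, 12.15, 12.07 and 12.09 on the Ypel5 siRNA arrays, again without overlap. Its difference was log2 0.19 (SE 0.066, limma adjusted p = 0.324 over all probes). Both probes read the same RNA samples, so they are not separate replicates. Over 20 alternative settings the difference of Psmd7 stayed between log2 0.16 and 0.21, and it passed the threshold in 5 of them, with adjusted p between 0.00786 and 0.240. Those 5 were fits without background correction, with the authors' normalized values (in both deposited copies), with probes detected on all 8 arrays, and with a variance model that follows intensity. The deposited copies gave the same result, so the 5 are not separate checks. More of all genes also passed than in the main fit without background correction, with the authors' values and with that variance model. When any 1 of the 8 arrays was left out, the difference of Psmd7 was between log2 0.17 and 0.21 and its adjusted p between 0.0851 and 0.143.

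Psmd14, the metalloprotease that cuts the ubiquitin chain off the substrate, read log2 11.55, 11.61, 11.72 and 11.80 on the scrambled arrays. On the Ypel5 siRNA arrays it read 11.75, 11.80, 11.72 and 11.92. The groups overlapped, and the difference was log2 0.13 (SE 0.071, adjusted p = 0.340, exact permutation p = 0.114). Psmd11, a lid subunit that touches the core, was at log2 10.80, 11.06, 10.94 and 10.83 against 10.81, 10.83, 10.87 and 10.89. The Ypel5 siRNA arrays lay inside the range of the scrambled ones, with a difference of log2 -0.06 (SE 0.065, adjusted p = 0.672, exact permutation p = 0.457), and with 1 array left out it ran from -0.09 to -0.01. Psmd6, Psmd8, Psmd12 and Psmd13 had differences of log2 -0.01, -0.06, 0.02 and 0.00, with adjusted p of at least 0.743.

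**Figure D3:**
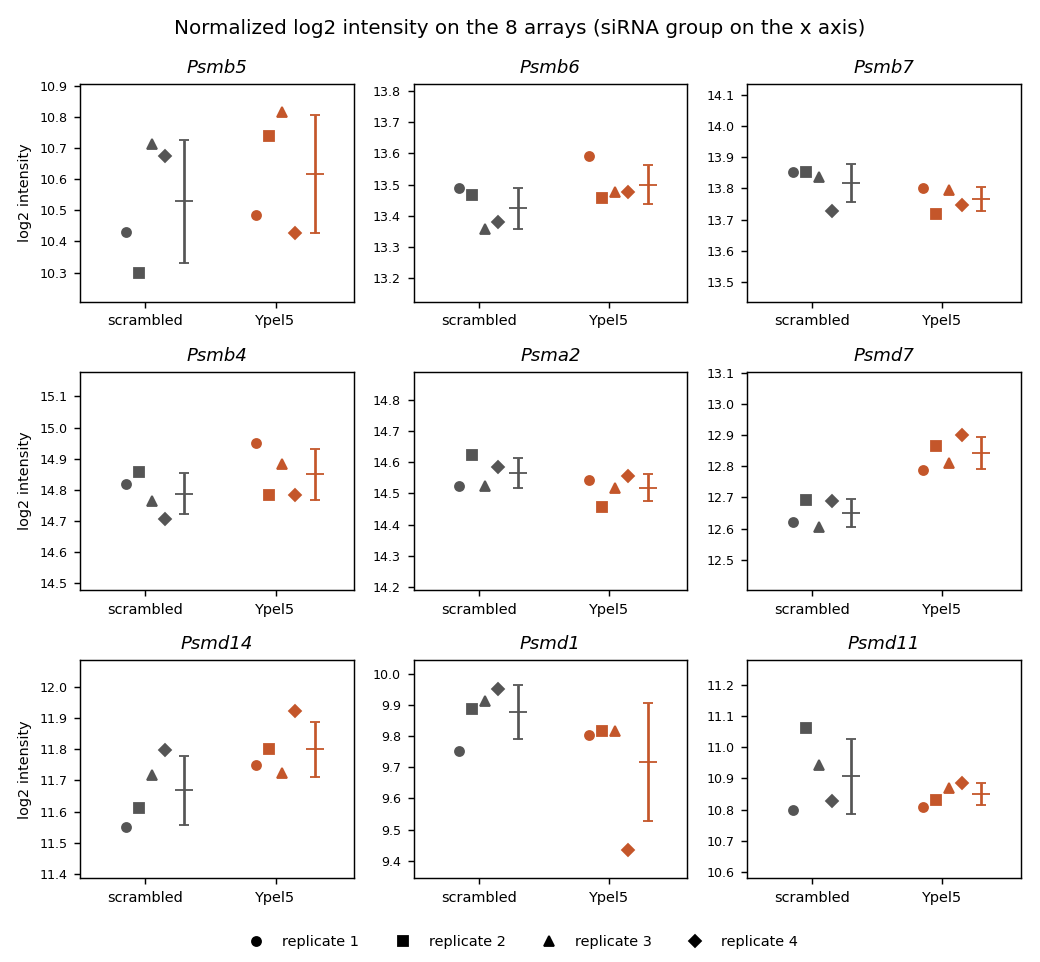
Normalized log2 intensity (y axis, each panel spanning 0.7 units on its own scale) of 9 members on the 4 scrambled and 4 Ypel5 siRNA arrays, with symbols for the replicate numbers and a bar for the mean ± SD of each group. The groups are separate for Psmd7 and overlap for the other 8 genes.

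The assembly chaperones Psmd5, Psmd9 and Psmd10, which help to build the base and leave the finished particle, were at log2 0.26 (SE 0.16), -0.01 (SE 0.13) and 0.05 (SE 0.069). Psmd5 had the highest difference of the 31 members, but its 95% interval ran from -0.12 to 0.63 and its adjusted p was 0.423. With 1 array left out, it ran from log2 0.15 to 0.39. Psmc3ip was at log2 -0.10 (SE 0.072, adjusted p = 0.492).

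Probes of the same gene did not always point the same way. Of the members, 11 had further probes detected on at least 4 arrays, 13 probes in all, of which 9 had the sign of the brightest probe and 4 the opposite sign. The 4 were a probe each of Psmb2, Psmb7, Psmc5 and Psmd11. For Psmb7 the probe differences were log2 -0.05 (SE 0.049), 0.04 (SE 0.077) and -0.11 (SE 0.056). On the last of these, ILMN_2836147, every Ypel5 siRNA array lay below every scrambled array (exact permutation p = 0.0286, limma adjusted p = 0.536 over all probes). Of all genes tested, 7.29% had such a separation in that direction. The probe was picked from the 13 after its values were seen, which the permutation p leaves out of account. The second probe of Psmd9 was at log2 -0.22 (SE 0.12). RefSeq names 6 pseudogenes of members (of Psma5, Psmb5, Psmb6 and Psmb7), whose part in these probes' signals was not tested.

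**Figure D4:**
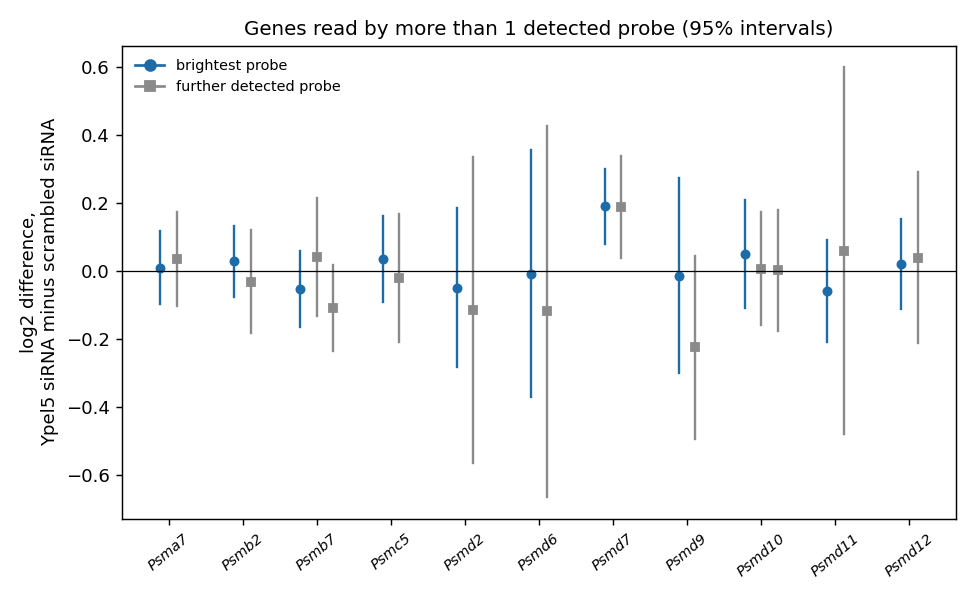
Log2 difference (y axis, Ypel5 siRNA minus scrambled siRNA) of each detected probe of the 11 members read by more than 1 detected probe, with 95% intervals. The Psmd7 probes both lie at 0.19, and 4 of the 13 further probes have the opposite sign to the brightest probe of their gene.

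Other genes of the pathway were listed by function: 35 of 39 listed genes had a probe here and 32 were tested. Of these 32, 0 passed the limma threshold and 8 had an unadjusted p under 0.05 (2 higher and 6 lower, against 11% and 10.5% of all genes). The groups did not overlap for 5 of the 32 (Psmg2, Psmg3, Nfe2l1, Nfyc and Nploc4), a share close to the 15.2% of all genes. Of 5 listed genes for proteins that assemble the core, 4 were tested, and Psmg4 had no probe here. Psmg1, Psmg2, Psmg3 and Pomp were all below 0, also with a common median per array. In the main fit 4051 of all 8145 genes were below 0. The median difference of the 4 genes was log2 -0.14. Psmg2, which pairs with Psmg1 to assemble the α ring, was at log2 -0.17 (SE 0.047, adjusted p = 0.0741), and Psmg3 at log2 -0.20 (SE 0.069, adjusted p = 0.141). Psmg1 stood at log2 -0.11 (adjusted p = 0.327) and Pomp, which matures the β subunits, at log2 -0.08 (adjusted p = 0.478). Under the 20 alternatives the difference of Psmg2 passed in 4 and that of Psmg3 in 1.

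The immunoproteasome genes Psmb8 and Psmb9 stood at log2 0.21 (SE 0.13, adjusted p = 0.414) and 0.26 (SE 0.22, adjusted p = 0.549), and Psmb10 at log2 -0.04 (SE 0.057). Psmb8 was at log2 0.08 without Ypel5 siRNA replicate 2. Psmb9 was at log2 0.10 without scrambled replicate 2, 0.11 without Ypel5 siRNA replicate 4 and 0.09 with the authors' normalized values. The activators Psme1 to Psme4 and the inhibitor Psmf1 had differences from log2 -0.09 to 0.09. Proteins that join the regulatory particle or deliver substrates to it (10 of 11 tested) had a median of log2 -0.01, with 4 above 0 and 6 below. Among them, Uchl5 was at log2 -0.16 (SE 0.064, adjusted p = 0.202). The list of transcription factors and their processing enzymes (5 of 6 tested) had a median of log2 -0.11, with 2 above 0 and 3 below. In it, Nfe2l1 was at log2 0.20 (SE 0.070, adjusted p = 0.137) and Nfyc, a subunit of NF-Y, at log2 0.18 (SE 0.051, adjusted p = 0.0891). The other NF-Y subunits, Nfya and Nfyb, were at log2 -0.30 (SE 0.14, adjusted p = 0.264) and -0.17 (SE 0.070, adjusted p = 0.206). Of the ubiquitin genes and the unfoldase machinery (5 of 9 tested), 2 were above 0 and 3 below. Nploc4, a cofactor of the unfoldase Vcp, was at log2 -0.19 (SE 0.059, adjusted p = 0.106) and Vcp itself at log2 0.02. Uba1, in the same list, was at log2 -0.16 (SE 0.061, adjusted p = 0.181). Nfyc passed the threshold under 4 alternatives, Nfe2l1 under 1 and Nploc4 under 0. Those of Nfyc include both copies of the authors' values, which gave the same result.

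Across all genes, 241 passed as higher and 162 as lower after the Ypel5 siRNA. Each array detected between 11249 and 11612 probes, and precision is limited by there being 8 arrays. Of 8 macrophage marker genes 7 were tested, with 0 past the threshold (4.95% of all genes). At an unadjusted p under 0.05 there were 2 (21.6% of all genes), Fcgr1 at log2 0.23 and Ptprc at log2 -0.29. The untested marker, Itgam, was detected on 1 of the 8 arrays. Of 12 markers of T cells, B cells, fibroblasts and epithelium, 10 were detected on no array. The others, Cd4 and Cdh1, were detected on 3 and 5 of the 8 arrays.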

How the data were processed

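RNA had been extracted with a kit including DNase treatment and amplified to biotinylated cRNA, per the labels' protocols. The table before normalization, as deposited, holds a linear intensity and a detection p-value per probe and array, per the file headers. Both replicate 1 arrays held 101 distinct detection p-values, against 749 to 762 on the other arrays. A fit without both replicate 1 arrays was among the alternatives. The authors' normalized log2 values, deposited in 2 copies, come from RMA per the submitters' processing notes; its version and the build are not given in the sources used here. Both copies served as alternatives.

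The function neqc of limma 3.58.1 in R 4.3.3 corrected the background and normalized by quantiles (offset 16). Probes detected (p under 0.05) on at least 4 of 8 arrays were kept (11364), and the brightest stood for its gene (8145 genes). Names were updated through RefSeq's gene table. The groups were set against each other in a limma fit (lmFit, then eBayes; two-sided; Benjamini-Hochberg adjustment over all genes), and single members with two-sided exact permutation tests. Values on every array are given for Psmb5, Psmb6, Psmb7, Psmd14 and up to 2 members of each particle and direction with the smallest p. Nfe2l1, Nfya, Nfyb, Nfyc, Nploc4, Vcp, Uchl5 and Uba1 were picked from their lists after their values were seen. The members and lists were chosen with earlier results of these data known.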

Additional observations from a re-analysis of the deposited data

Results flagged for a closer look

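Dixon's ratio at its 95% critical value was applied to 62 groups of 4 arrays (31 members in 2 groups). Chance gives 1 array standing apart in about 1 of 20 groups if values are independent and normally distributed. The members were all read on the same arrays, so their groups need not be independent. In 7 of the 62 groups, 1 array stood apart from the other 3. In the Ypel5 siRNA group these were Psma5 on replicate 2 (log2 14.71, nearest 14.92), Psmb6 on replicate 1 (13.59, nearest 13.48), Psmd1 on replicate 4 (9.43, nearest 9.80) and Psmd5 on replicate 1 (9.87, nearest 9.46). In the scrambled group they were Psma7 on replicate 4 (13.11, nearest 13.20), Psmb2 on replicate 2 (13.82, nearest 13.86) and Psmb7 on replicate 4 (13.73, nearest 13.84). The gap was widest for Psmd5 and Psmd1, the members with the highest and the lowest difference, and their groups overlapped. The share of such groups over all genes was not computed. Whether 7 of 62 is more than that share was therefore not tested.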

How the results depend on the processing

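Of 619 member values under 20 alternatives, 5 passed the threshold, all of Psmd7, and 46 had another sign than in the main setting, each with an adjusted p above 0.05. The count of core members called was 0 under every alternative. That of regulatory members was 1 without background correction, with the authors' normalized values in either copy, with probes detected on all 8 arrays and with eBayes trend and robust, and 0 under the others, the assembly chaperones counted in or not. The core median was log2 -0.0663 with a common median per array. The regulatory median was log2 -0.0120 with the source-name number as replicate block and 0.0334 without both replicate 1 arrays. Replicate numbers gave no clear pairing, though 4 arrays per group cannot exclude one. The deviations of same-numbered arrays had correlations of 0.0386, -0.00354, -0.0015 and 0.18 across genes. Among the Ypel5 siRNA arrays, 2 of 4 scrambled arrays correlated best with the one of their own number. With the description number as replicate block no call on a member changed (Psmd7 at log2 0.19). With 1 array left out, the core median ran from log2 0.01 to 0.05 and the regulatory median from -0.0135, without Ypel5 siRNA replicate 3, to 0.0214, without replicate 4 of that group. The count over all genes (403) was 670 without background correction, 671 with the authors' values, 774 with trend and robust, 235 with a common median, 144 without a detection filter, 107 and 140 with the replicate blocks, 68 without replicate 1 and 187 to 269 with 1 array left out. The causes were not tested. Probes near background, such as those of Psma1, Psma3, Psma6 and Psmc6, limit what can be said of their genes.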
